A study of Mus musculus with 384 samples.

Results

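Krt5, Krt14, Krt15 and Krt17 are the keratins of the basal layer and of the root sheath of the hair follicle. They were chosen by gene symbol and are 4 of the 46517 genes in the deposited table, in which 51 rows belong to the keratin family. They were measured in cells of mouse back skin that had been sorted 1 to a well as hair follicle stem cells, with the full-length Smart-seq2 method. Not all of these cells carried stem cell markers, as given below. All mice were at postnatal day 70 and are labelled male. The dKO group carried NFIBfl/fl and NFIXfl/fl, and the cKO group NFIBfl/+ and NFIXfl/fl. Both groups also carried R26-YFPfl/fl, a YFP reporter, and Sox9-CreER, a tamoxifen-inducible recombinase that follows the expression of Sox9 in the follicle. Nfix was thus floxed on both alleles in both groups, which differed in the number of floxed Nfib alleles. Nfib and Nfix encode transcription factors of the nuclear factor I family. Recombination was not checked here. All sorted cells excluded the dye DAPI and stained for integrin α6 and YFP. They were taken as positive or negative for Sca-1, a surface protein that is high in epidermis and upper follicle and low in the bulge, the stem cell niche of the follicle.

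Keratins are the intermediate filament proteins of epithelial cells, and a filament needs a type I and a type II keratin in equal amounts. Krt5 is the type II keratin of basal keratinocytes, and Krt14 is its type I partner there. Krt15 is a type I keratin used as a marker of bulge stem cells, and Krt17 is a type I keratin found in outer root sheath cells and in keratinocytes activated by wounding. In human skin, mutations of KRT5 or KRT14 cause a blistering disease, epidermolysis bullosa simplex.

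Of 384 cells on 5 plates, 378 had at least 1000 genes at 1 TPM or more and were kept. TPM is a transcript level, corrected for gene length and scaled to the same total in every cell, so that levels of different genes can be set side by side. The Sca-1-positive gate held 19 dKO cells on plate 2 and 22 cKO cells on plate 3, and the Sca-1-negative gate held 93 and 61 dKO cells on 2 plates and 71, 47 and 65 cKO cells on 3 plates, 337 in all. The median number of genes per cell lay between 4770 and 5199 over plates and gates. Because no label ties a cell to an animal, each genotype counts as 1 sample, no test was run and values are given by plate. Xist RNA was found on dKO plate 1 and on cKO plates 1 and 2, and Y-linked RNA on dKO plate 2 and cKO plate 3, against the label male, so the genotypes are also compared within each of these kinds of plate. At least 3 of 8 bulge markers reached 10 TPM in 229 cells, of which 2 were Sca-1-positive. No cell held 3 markers of immune cells, melanocytes, fibroblasts, endothelium or Merkel cells.

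All 4 genes lie on the minus strand of GRCm38. Krt5 lies on chromosome 15 (101707070 to 101712898). The type I genes lie close together on chromosome 11, Krt15 at 100131758 to 100135928, Krt14 at 100203162 to 100207548 and Krt17 at 100256217 to 100261029. Their coding sequences are alike, which matters for reads of 38 bases. The longest run of identical bases between the Krt14 and Krt17 transcripts was 71 bases in exon 6, inside the coding sequence, at chr11:100204114-100204184 in Krt14 and chr11:100257439-100257509 in Krt17. It is shown 5′ to 3′ from GENCODE M21 transcripts, with the closest stretch of Krt16 and Krt15, to show where a short read cannot name its gene; capitals mark bases that differ from Krt14.
Krt14: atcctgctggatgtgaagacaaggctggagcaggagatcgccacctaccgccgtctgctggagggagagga
Krt17: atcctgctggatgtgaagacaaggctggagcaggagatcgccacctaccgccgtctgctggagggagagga
Krt16: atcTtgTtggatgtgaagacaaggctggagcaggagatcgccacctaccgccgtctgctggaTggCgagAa
Krt15: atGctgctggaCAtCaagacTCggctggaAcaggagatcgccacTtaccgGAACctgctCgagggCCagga

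Krt16 differed from Krt14 at 5 of these 71 bases and Krt15 at 15. Over whole transcripts, 382 of the 1661 windows of 38 bases in Krt14 also occurred in another gene, 15.7% of the windows in Krt16 and 7.34% in Krt17. The share was 13.9% for Krt5 (301 of 2160 windows, with 8.38% in Krt6a), 10.4% for Krt17 and 2.35% for Krt15 (39 of 1663). Of the 4 genes, Krt14 thus had the largest share of sequence that a single read of this length cannot assign, and Krt15 the smallest. How the authors' program divided such read pairs was not tested.

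In Sca-1-negative cells the 4 genes were among the abundant transcripts of both genotypes. Krt5 was the most even of them, and was at 0 in 1 cell on each plate except cKO plate 3, where it was at 0 in 5 of 65 cells. Its mean was 752 and 898 TPM on the dKO plates, against 816, 1073 and 814 TPM on the cKO plates. The genotypes overlapped, and the log2 ratio of dKO over cKO was -0.13, or 0.02 without cKO plate 2. At least 100 TPM of Krt5 was found in 96.1% of dKO cells and in 93.99% of cKO cells.

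Krt14 varied far more from cell to cell. Its mean was 710.0 and 577 TPM on the dKO plates, with medians of 382 and 332 TPM, against means of 747, 1057 and 806 TPM and medians of 374, 813 and 545 TPM on the cKO plates. Single cells ran from 0 to 4338 TPM in dKO and from 0 to 4878 TPM in cKO. The means of all dKO plates were below those of all cKO plates, while the medians overlapped. The ratio of means (log2 -0.43) was under the 1.5-fold size used here to call a difference. Krt14 was at 0 in 13.98% and 14.8% of cells on the dKO plates, against 25.4%, 12.8% and 10.8% on the cKO plates.

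Krt15 was lower in dKO. The dKO plates averaged 181.5 and 284 TPM, with medians of 122.1 and 227 TPM and highest cells of 832 and 1353 TPM. The cKO plates averaged 515, 742 and 440.3 TPM, with medians of 335, 632 and 331 TPM and highest cells of 1884, 2153 and 1620 TPM. No dKO plate reached the lowest cKO plate, and the ratio was 2.42-fold lower (log2 -1.28). Cells of high level were rare in dKO: at least 1000 TPM was found in 1 dKO cell (0.649%, 95% exact interval 0.0164% to 3.56%) and in 36 cKO cells (19.7%, 14.2% to 26.2%).

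Krt17 was higher in dKO. The dKO plates averaged 836 and 792 TPM, with medians of 467 and 569 TPM. The cKO plates averaged 427, 441.4 and 460.0 TPM, with medians of 201, 208 and 158.3 TPM. The plates did not overlap and the ratio was 1.84-fold higher (log2 0.88). The highest cells were alike, at 3483 and 3414 TPM on the dKO plates and 3340, 3293 and 3463 TPM on the cKO plates. The share of cells at or above a moderate level differed: at least 100 TPM was found in 90.9% of dKO cells (85.2% to 94.9%) and in 63.9% of cKO cells (56.5% to 70.9%). By plate it was 91.4% and 90.2% in dKO and 66.2%, 63.8% and 61.5% in cKO.

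**Figure D1:**
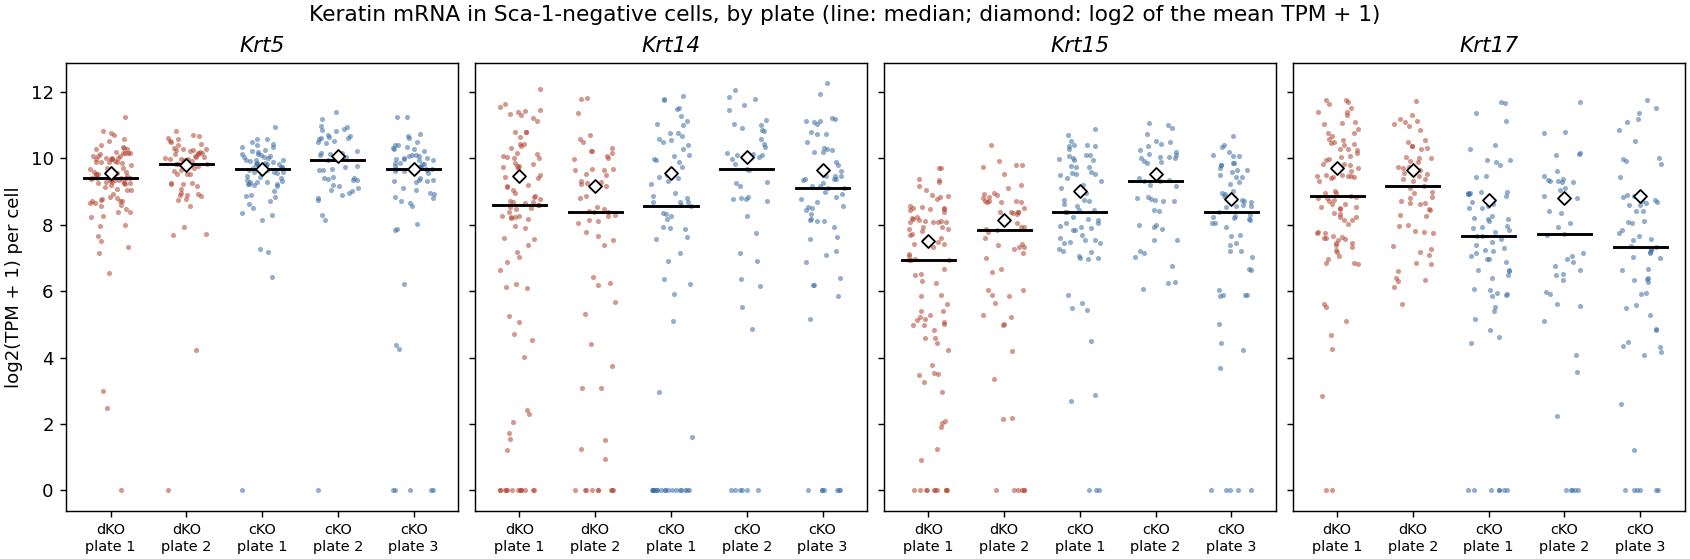
Krt5, Krt14, Krt15 and Krt17 in single Sca-1-negative cells, as log2(TPM + 1), on the 2 dKO plates (red) and the 3 cKO plates (blue). Each point is a cell, the line is the median and the diamond is the log2 of the mean TPM + 1; Krt15 lies lower and Krt17 higher on both dKO plates than on any cKO plate, with plate means of 181.5 and 284 TPM against 440.3 to 742 TPM for Krt15.

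A difference of at least 1.5-fold with plates that did not overlap was found in the higher direction for 1 of the 4 keratins, against 2.04% of the 7060 genes that averaged at least 5 TPM, and in the lower direction for 1 of 4, against 6.54%. Among the 297 genes of at least 100 TPM, which hold all 4 keratins, the shares were 1.68% higher and 4.71% lower. In order of the log2 ratio, Krt17 was the third from the top of these 297 genes and Krt15 the fourth from the bottom. The median log2 ratio was -0.12 over the 7060 genes and -0.10 over the 297. With TPM rescaled after removal of the spike-in rows and the 5 most abundant rows, the median of the 7060 genes was 0.00 and 46.6% of the calls were higher, where the deposited scale gave 23.8%. With size factors between plates the share was 41.8%. Krt15 and Krt17 were called in the same direction on each of these scales, and Krt5 and Krt14 were called on none.

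The log2 ratio of Krt17 in dKO over cKO was 0.94 among plates with Xist RNA and 0.78 among plates with Y-linked RNA, and that of Krt15 was -1.79 among the first kind and -0.63 among the second. Each of these values was past 1.5-fold, and that of Krt15 was larger on the Xist plates. For Krt14 it was -0.34 with Xist RNA and -0.48 with Y-linked RNA, and for Krt5 -0.33 with Xist RNA and 0.14 with Y-linked RNA, of opposite sign. The median over genes of at least 5 TPM was -0.23 among Xist plates and 0.04 among Y plates.

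Some other measures moved with genotype. The median number of genes per cell was 5199 and 5189 on the dKO plates and 4805, 4963 and 5044 on the cKO plates. The summed level of 6 fibroblast markers was 11.8 to 23.8 TPM in dKO and 2.69 to 7.16 TPM in cKO by plate, nearly all of it Col1a1 in dKO, with Lum at 0 in every cell. Of the 4 suprabasal markers of at least 5 TPM, Krtdap was higher in dKO (180.2 and 188 TPM on the dKO plates, against 68.7, 20.4 and 120.4 TPM on the cKO plates), and the list summed to 292 to 432 TPM in dKO and 72.8 to 413 TPM in cKO. Without the 65 dKO and 68 cKO cells that held 3 markers of suprabasal epidermis, sebaceous gland or upper follicle, the log2 ratio of Krt17 was 1.14. Of 7 measured bulge markers, 1 was called higher and none lower, beside 2.04% and 6.54% of all genes, and their median log2 ratio was -0.32. All 8 listed summed to 243 and 290.3 TPM on the dKO plates and 360, 383 and 232 TPM on the cKO plates. The called marker was Cd200, higher in dKO on each scale. It was at 42.01 and 43.3 TPM on the dKO plates and 21.1, 35.6 and 19.3 TPM on the cKO plates. Cd34 overlapped, at 26.1 and 48.4 TPM on the dKO plates and 99.8, 81.5 and 44.3 TPM on the cKO plates. The part of genes per cell, Col1a1 and Cd200 in the keratin differences was not tested.

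The type I keratins differed in share more than in sum. Krt14, Krt15 and Krt17 together averaged 1727 and 1654 TPM on the dKO plates and 1688, 2241 and 1706 TPM on the cKO plates. Set against Krt5, the type I sum was 2.30 and 1.84 times as high on the dKO plates and 2.07, 2.09 and 2.10 times as high on the cKO plates, and these overlapped. Averaged over plates, Krt17 made up 48.1% of the sum in dKO and 23.98% in cKO. Krt15 made up 13.9% in dKO and 29.8% in cKO, and Krt14 38.0% in dKO and 46.2% in cKO.

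Cell by cell, Krt17 was the highest of the 3 type I keratins in 75 dKO cells (48.7%, 95% exact interval 40.6% to 56.9%) and in 28 cKO cells (15.3%, 10.4% to 21.3%). Krt15 was the highest in 28 dKO cells (18.2%) and in 74 cKO cells (40.4%). Krt14 was the highest in 51 dKO cells (33.1%) and in 81 cKO cells (44.3%). By plate, the share of cells led by Krt17 was 48.4% and 49.2% in dKO and 18.3%, 8.51% and 16.9% in cKO, without overlap. The intervals cover counting error only.

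**Figure D2:**
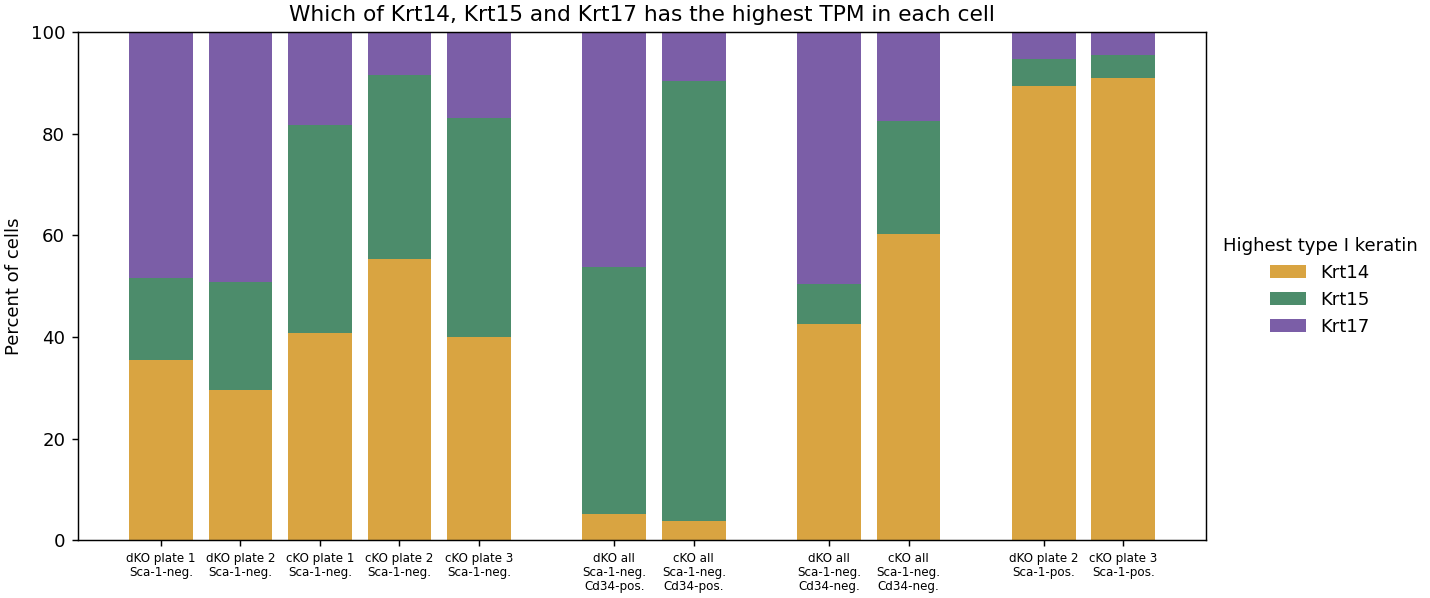
Percent of cells in which Krt14, Krt15 or Krt17 had the highest TPM of the 3, by plate in Sca-1-negative cells, by genotype in Cd34-positive and Cd34-negative cells among them, and in Sca-1-positive cells. Krt17 leads in 48.4% and 49.2% of cells on the dKO plates and in 8.51% to 18.3% on the cKO plates, and Krt14 leads in most Sca-1-positive cells.

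Few cells carried only 1 of the keratins. All 4 reached 10 TPM in 235 of 337 Sca-1-negative cells (69.7%), 3 of them in 71 cells, 2 in 27 and 1 in 4, and no cell was below 10 TPM for all 4. Within plates, Spearman's rho over cells was -0.29 on average between Krt14 and Krt15, and negative on all 5 plates (-0.16 and -0.23 in dKO, -0.39, -0.47 and -0.19 in cKO), though Pearson's r of the log2 values averaged -0.03. Between Krt15 and Krt17 it was also -0.29 on average, but 0.02 on cKO plate 2. Krt5 correlated at 0.27 with Krt14, 0.18 with Krt15 and 0.02 with Krt17. These are descriptions over 337 cells that share plates, library preparation and the TPM total, and the negative values between type I genes were of modest size.

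Cd34, a surface protein of bulge stem cells, separated the keratins of Sca-1-negative cells. Cells with at least 10 TPM of Cd34 numbered 23 and 16 on the dKO plates and 23, 13 and 16 on the cKO plates, 91 in all, against 246 without. They made up 24.7% and 26.2% of the dKO plates and 32.4%, 27.7% and 24.6% of the cKO plates, which overlapped. Krt15 was higher in Cd34-positive cells, by 2.96-fold over plates (log2 1.56 ± 0.14, SD over 5 plates). In dKO it averaged 374 and 547 TPM in Cd34-positive cells, against 118.3 and 190.5 TPM in Cd34-negative cells. In cKO it averaged 967, 1325 and 895 TPM in Cd34-positive cells, against 299, 519.6 and 292 TPM in Cd34-negative cells. All 5 plates moved the same way and by a like amount, with log2 ratios from 1.35 to 1.69. No Cd34-positive cell was at 0 for Krt15, against 24 of the 246 Cd34-negative cells.

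Krt14 was lower in Cd34-positive cells, by 5.17-fold (log2 -2.37 ± 1.05, SD over 5 plates). In dKO it averaged 158.2 and 230.3 TPM in Cd34-positive cells, against 891 and 701 TPM in Cd34-negative cells. In cKO it averaged 100.5, 136.5 and 451 TPM in Cd34-positive cells, against 1056, 1409 and 922 TPM in Cd34-negative cells. The direction held on all 5 plates, and cKO plate 3 had the smallest difference (log2 -1.03). Krt14 was at 0 in 13 of 39 dKO and 21 of 52 cKO Cd34-positive cells, against 7.83% of dKO and 7.63% of cKO Cd34-negative cells.

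Krt17 was lower in Cd34-positive cells by 1.89-fold (log2 -0.92 ± 0.56, SD over 5 plates). In dKO it averaged 504 and 442 TPM in Cd34-positive cells, against 944 and 917 TPM in Cd34-negative cells. In cKO it averaged 185.9, 439 and 248 TPM in Cd34-positive cells, against 542, 442 and 529 TPM in Cd34-negative cells. The plates were not alike, since cKO plate 2 was nearly level (log2 -0.01), and with a Cd34 threshold of 5 TPM the mean log2 ratio was -0.58, just under 1.5-fold. From plate medians it was -0.40.

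Krt5 was not called by Cd34 status. It was higher in Cd34-positive cells on 4 of 5 plates, with a mean log2 ratio of 0.26 ± 0.19, and on dKO plate 1 it averaged 722 TPM in Cd34-positive cells, against 762 TPM in Cd34-negative cells. The type I sum in Cd34-positive cells was 1.16 to 1.59 times the level of Krt5 by plate, against 2.14 to 2.56 times in Cd34-negative cells, without overlap.

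**Figure D3:**
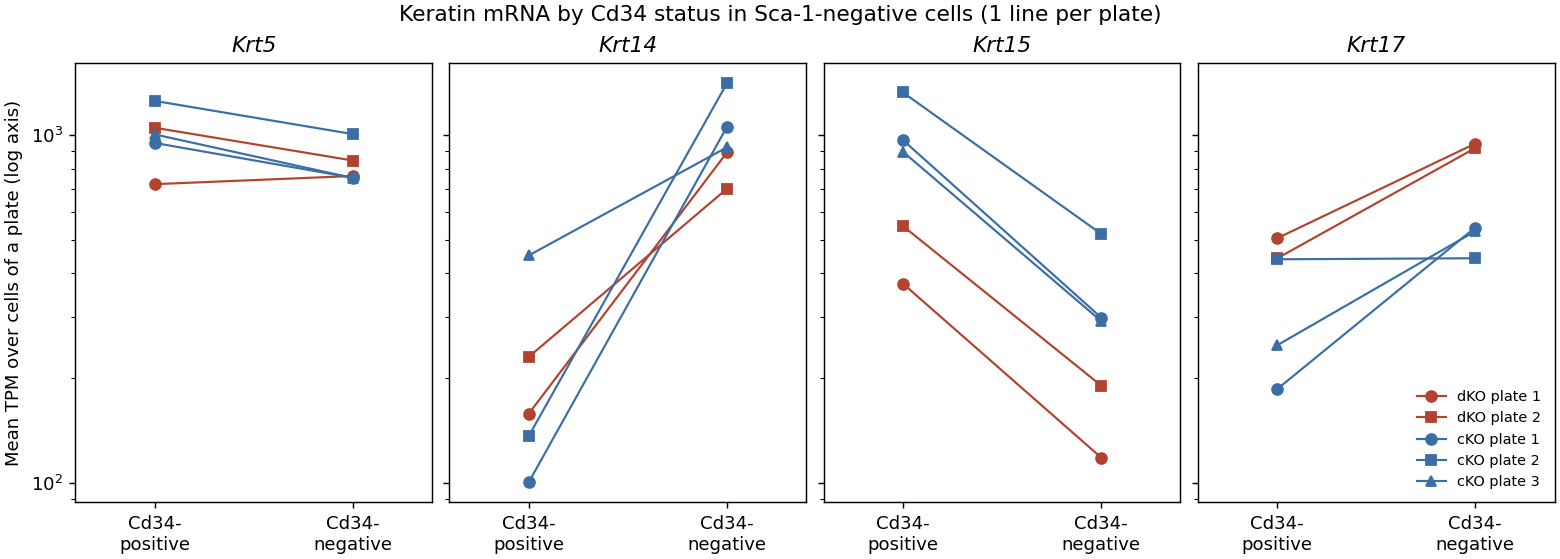
Mean TPM (log axis) of each keratin in Cd34-positive and Cd34-negative cells of the Sca-1-negative gate, 1 line per plate, dKO in red and cKO in blue. Krt14 is lower and Krt15 higher in Cd34-positive cells on every plate, Krt17 is level on cKO plate 2 (439 and 442 TPM), and the dKO lines of Krt15 lie below the cKO lines in both classes.

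Calls by Cd34 status were made for 8.48% of 7123 genes in the higher direction and 8.3% in the lower, against 1 and 2 of the 4 keratins. Cd34-positive cells had fewer genes than Cd34-negative cells on 4 of 5 plates, for example 4610.5 against 5097 on cKO plate 3, and more on dKO plate 2 (5348.5 against 5138). With cells matched on classes of genes detected, the mean log2 ratios were -2.25 for Krt14, 1.52 for Krt15 and -0.99 for Krt17. All 6 upper follicle markers were lower in Cd34-positive cells (median log2 -3.92), and of the bulge markers Lgr5, Sox9 and Lhx2 were higher and Itga6 lower. The fibroblast marker Col1a1 was higher in Cd34-positive cells, at 43.5 and 77.5 TPM on the dKO plates, against 1.41 and 4.69 TPM in Cd34-negative cells of those plates, and its part in the keratin differences was not tested. Without cells that held 3 markers of upper follicle, suprabasal epidermis or sebaceous gland, the mean log2 ratios were -2.46 for Krt14, 1.57 for Krt15 and -0.69 for Krt17.

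The genotypes were then compared within each Cd34 class. In Cd34-positive cells Krt15 was 2.30-fold lower in dKO, and in Cd34-negative cells 2.39-fold lower, with no overlap of plates in either. Krt17 was 1.62-fold higher in dKO in Cd34-positive cells, where the nearest plates were 442 TPM (dKO plate 2) and 439 TPM (cKO plate 2), and 1.84-fold higher in Cd34-negative cells. Krt5 and Krt14 were called in neither class. Of all genes, 5.27% were called higher and 10.3% lower in dKO among Cd34-positive cells, and 3% and 7.25% among Cd34-negative cells.

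Among Cd34-positive cells, at least 1000 TPM of Krt15 was found in 1 of 39 dKO cells (2.56%, 95% exact interval 0.0649% to 13.5%) and in 26 of 52 cKO cells (35.8% to 64.2%). By plate this share was 0% and 6.25% in dKO and 47.8%, 76.9% and 31.25% in cKO, a spread that the intervals do not cover. Krt15 was the highest type I keratin in 19 of 39 dKO cells (48.7%) and in 45 of 52 cKO cells (86.5%). Krt17 was the highest in 18 of 39 dKO cells (46.2%) and in 5 of 52 cKO cells (9.62%). Krt14 led in 2 cells of each genotype. In Cd34-negative cells Krt17 led in 49.6% of dKO cells and in 17.6% of cKO cells.

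**Figure D4:**
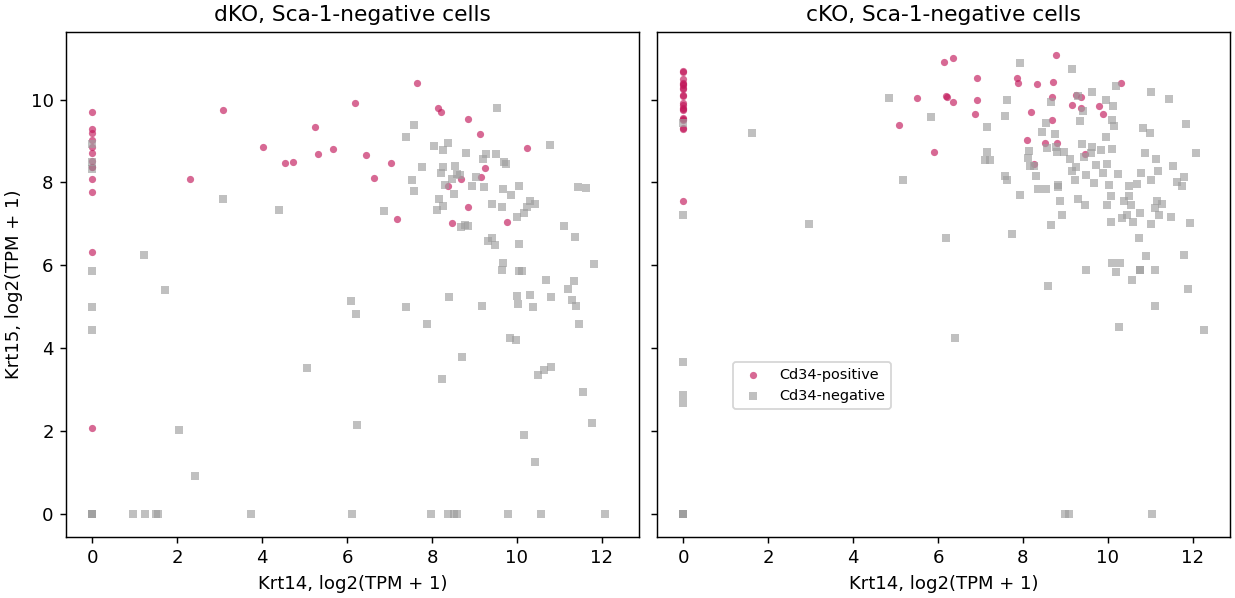
Krt15 against Krt14 as log2(TPM + 1) in single Sca-1-negative cells of dKO (left) and cKO (right), with Cd34-positive cells in pink and Cd34-negative cells in grey. Most Cd34-positive cells lie at higher Krt15 and lower Krt14 than most Cd34-negative cells in both panels, at 0 for Krt14 in 13 of 39 dKO and 21 of 52 cKO cells, and their Krt15 is lower in dKO (median 368 TPM) than in cKO (median 999 TPM).

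The Sca-1 gate was compared on the plates that held both gates, dKO plate 2 and cKO plate 3. On both plates, Sca-1-positive cells lay in well rows A and B and Sca-1-negative cells in rows C to H. Gate and position on the plate thus cannot be told apart. No Sca-1-positive cell reached 10 TPM of Cd34 (0 of 41). Krt14 was higher in Sca-1-positive cells on both plates. It averaged 2821 TPM in Sca-1-positive and 577 TPM in Sca-1-negative dKO cells (4.88-fold), and 2294 TPM in Sca-1-positive and 806 TPM in Sca-1-negative cKO cells (2.84-fold). Krt14 was the highest type I keratin in 17 of 19 dKO and 20 of 22 cKO Sca-1-positive cells.

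Krt5 was also higher in Sca-1-positive cells, by less than its partner. It averaged 1474 TPM in Sca-1-positive and 898 TPM in Sca-1-negative dKO cells (1.64-fold), and 1461 TPM in Sca-1-positive and 814 TPM in Sca-1-negative cKO cells (1.80-fold). No Sca-1-positive cell was at 0 for Krt5. Its levels in Sca-1-positive cells of the 2 plates were within their spread over cells.

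Krt17 was lower in Sca-1-positive cells. It averaged 183.98 TPM in Sca-1-positive and 792 TPM in Sca-1-negative dKO cells (4.29-fold lower), and 183.5 TPM in Sca-1-positive and 460.0 TPM in Sca-1-negative cKO cells (2.50-fold lower). The median was 0 TPM in Sca-1-positive cells on both plates, with 10 of 19 dKO and 12 of 22 cKO cells at 0. The mean rested on a few cells, of which the highest held 2018 TPM in dKO and 2607 TPM in cKO. The highest 5% of cells of each group were also removed, rounded up to whole cells, so that more than 5% were left out. The log2 ratio was then -3.00 on dKO plate 2 and -2.82 on cKO plate 3. The means of all cells gave -2.10 and -1.32.

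Krt15 was not called by gate. It averaged 421 TPM in Sca-1-positive and 284 TPM in Sca-1-negative dKO cells (log2 0.57), and 436 TPM in Sca-1-positive and 440.3 TPM in Sca-1-negative cKO cells (log2 -0.01). The genotype difference of Krt15 seen in the Sca-1-negative gate of these plates was not seen in the Sca-1-positive gate, where the means were 421 TPM in dKO and 436 TPM in cKO; that difference between gates was not tested. Against Cd34-negative cells alone, the log2 ratio of Krt15 was 1.14 on dKO plate 2 and 0.58 on cKO plate 3, just under 1.5-fold, so that it was not called there either.

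**Figure D5:**
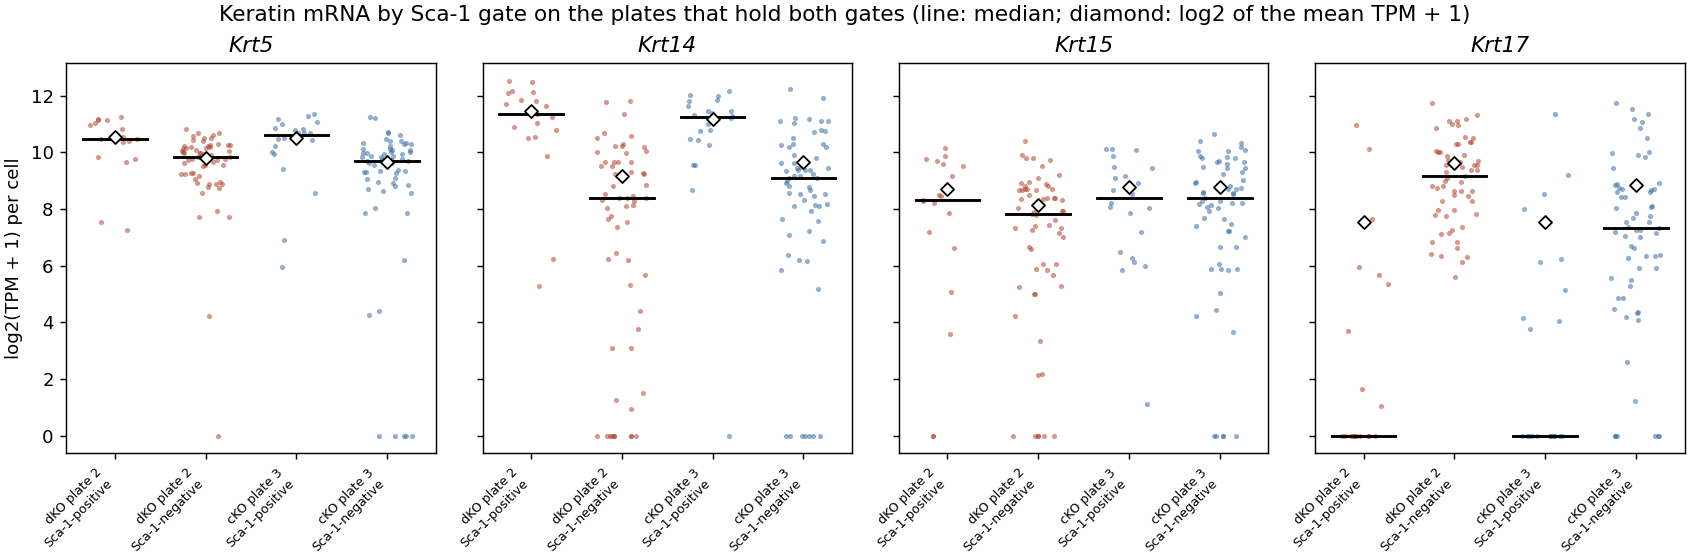
The keratins in single Sca-1-positive and Sca-1-negative cells of dKO plate 2 (red) and cKO plate 3 (blue), as log2(TPM + 1), with the median as a line and the log2 of the mean TPM + 1 as a diamond. Krt14 and Krt5 lie higher in Sca-1-positive cells, Krt17 has its median at 0 there, and the cells of both gates overlap widely for Krt15.

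Calls by gate were made for 3.95% of 6579 genes in the higher direction and 15.6% in the lower, against 2 and 1 of the 4 keratins. Of the calls, 20.2% were higher as deposited, 30.5% after rescaling and 41.8% with size factors, and the 3 keratin calls were made on each scale. The 8 bulge markers summed to 74.1 TPM in Sca-1-positive and 290.3 TPM in Sca-1-negative cells of dKO plate 2, and to 86.3 TPM in Sca-1-positive and 232 TPM in Sca-1-negative cells of cKO plate 3. Most of the sum in Sca-1-positive cells was Itga6, which encodes the integrin of the sort, and which was higher there, at 64.2 TPM in dKO and 75.2 TPM in cKO, while Nfatc1, Cd34, Lgr5, Sox9 and Cd200 were lower. Of the other marker lists, Ly6a, Krt1 and Krt10 were higher in Sca-1-positive cells, and Krt79, Lrig1, Cst6, Sbsn, Mgst1 and Col1a1 were lower. Ly6a encodes Sca-1, the protein the gate was sorted on, so its level is no separate result. Suprabasal markers summed to 500.4 TPM in dKO and 603 TPM in cKO Sca-1-positive cells, with 4 dKO and 6 cKO cells holding 3 of them; their part in the keratin levels was not tested. Without the cells that held 3 markers of suprabasal epidermis, sebaceous gland or upper follicle, the log2 ratio of Krt14 was 2.72 on dKO plate 2 and 1.497 on cKO plate 3.

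The order of the 4 levels differed between groups of cells. In Sca-1-positive cells the order of the means was Krt14, Krt5, Krt15 and Krt17 in both genotypes. In Sca-1-negative, Cd34-positive cells of cKO it was Krt5 or Krt15 first, and then Krt17 and Krt14, except on cKO plate 3, where Krt14 (451 TPM) stood above Krt17 (248 TPM). In those of dKO it was Krt5 first and Krt14 last, with Krt15 below Krt17 on plate 1 and above it on plate 2. In Cd34-negative cells Krt15 had the lowest mean on all plates except cKO plate 2, where Krt17 was lowest.

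Beyond the 4 members, 7 of the other 47 keratin genes averaged at least 5 TPM. In mean level over plates these were Krt1 (83.4 TPM) and Krt10 (35.4 TPM), the suprabasal pair of the epidermis, Krt80 (81.3 TPM), Krt79 (76.04 TPM), a keratin of the upper follicle, Krt6a (30.4 TPM), a type II keratin of the companion layer and of wounds, Krt77 (27.9 TPM) and Krt16 (10.1 TPM), a type I keratin of wounded skin. Their median log2 ratio of dKO over cKO was 0.17, and 1 of 7 was called higher and 0 lower, beside 2.04% and 6.54% of all genes. That 1 was Krt16, at 27.5 and 16.2 TPM on the dKO plates and 1.55, 1.12 and 4.03 TPM on the cKO plates. Krt16 was higher on both dKO plates than on any cKO plate. It shares 260 windows with Krt14, and summing Krt14, Krt16 and Krt17 gave a log2 ratio of 0.17.

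By Cd34 status, 5 of the 7 (Krt1, Krt79, Krt10, Krt77 and Krt16) were lower in Cd34-positive cells, beside 8.3% of all genes, and none was higher on the deposited scale, beside 8.48%; after rescaling Krt6a was called higher. By gate, Krt1 and Krt10 were higher in Sca-1-positive cells, beside 3.95% of all genes, and Krt79 and Krt6a lower, beside 15.6%, Krt6a not with size factors. Krt1 averaged 255 and 271 TPM in Sca-1-positive cells of dKO plate 2 and cKO plate 3, against 36.1 and 158.1 TPM in their Sca-1-negative cells.

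Among genes of the junctions that anchor keratin filaments, 0 of 5 measured hemidesmosome genes and 0 of 10 measured desmosome genes were called by genotype, where 2.04% of all genes were called higher and 6.54% lower, so that lists of this size need hold no call. The median log2 ratio of the hemidesmosome genes was -0.27, beside -0.12 for all genes. The highest were Col17a1, a collagen of the hemidesmosome, at 160.3 and 213 TPM on the dKO plates and 231, 255 and 190 TPM on the cKO plates, and Plec, the plakin that binds keratin, at 130.98 and 145.5 TPM on the dKO plates and 152.9, 161.1 and 141.1 TPM on the cKO plates. By Cd34 status 1 of 5 was higher in Cd34-positive cells (Col17a1), beside 8.48% of all genes, and 1 lower (Itga6), beside 8.3%. By gate 1 of 5 was higher in Sca-1-positive cells (Itga6), beside 3.95% of all genes, and none lower, beside 15.6%. Col17a1 was also higher there with size factors alone. The median of the desmosome genes was -0.14, with Jup (plakoglobin) at 287 and 240.3 TPM on the dKO plates and 313, 281 and 264 TPM on the cKO plates, and Perp, a membrane protein of desmosomes, at 208 and 228 TPM on the dKO plates and 241, 221 and 262 TPM on the cKO plates. Of the 9 measured by Cd34 status, Jup, Pkp1 and Ppl were lower in Cd34-positive cells on each scale, beside 8.3% of all genes. None was higher on the deposited scale, beside 8.48%, and Dsg3 was called higher after rescaling alone. None of 10 was called by gate on the deposited scale, beside 3.95% of all genes higher and 15.6% lower, and Dsg2 was higher on the other scales.

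Of 11 measured regulators of basal and follicle keratin genes, 1 was called lower by genotype and none higher, near the shares of all genes (6.54% lower and 2.04% higher). Tfap2b, an AP-2 factor, was lower in dKO, at 8.58 and 12.2 TPM on the dKO plates and 18.4, 16.9 and 19.7 TPM on the cKO plates. Trp63, the master factor of stratified epithelium, which was chosen for naming after its values were seen, was not called, at 117.4 and 139.4 TPM on the dKO plates and 98.7, 162.1 and 112.8 TPM on the cKO plates. By Cd34 status 5 of 12 were higher in Cd34-positive cells (Sox9, Tcf7l2, Tfap2b, Lhx2 and Gli1; Gli2 also on the other scales), beside 8.48% of all genes, and 4 were lower (Sfn, Klf5, Tfap2a and Tfap2c), beside 8.3%. Of 10 measured by gate, Sfn and Klf5 were higher in Sca-1-positive cells, beside 3.95% of all genes, and Nfatc1, Sox9, Tcf7l2, Tfap2b and Gli2 were lower, beside 15.6%.

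The genes whose level followed each keratin most closely over Sca-1-negative cells differed between members. The measure was the mean over 5 plates of Spearman's rho within a plate, among 1710 genes, in cells that share the TPM total. Krt5 was closest to Col17a1 (0.49), Tgfbi (0.47), Anxa2 (0.42) and Col18a1 (0.41). Krt14 was closest to Ccl27a (0.57), a keratinocyte chemokine, Lgals9 (0.50), Arhgdib (0.50), Ly6a (0.49), which encodes Sca-1, and Ifitm3 (0.48). Krt15 was closest to Tbx1 (0.52), a transcription factor, and Cd34 (0.48), then Nbl1, Hmcn1 and Crip1 (0.46 each). Krt17 had no neighbour as close, with Cd44 (0.38), a hyaluronan receptor, Lgals7 (0.35), Alox12e (0.33), Efnb2 (0.32) and Krtdap (0.32). For Krt15 and Tbx1, rho was 0.39 and 0.34 on the dKO plates and 0.68, 0.55 and 0.64 on the cKO plates. All plates were positive for each named pair, and the lowest was 0.07, for Krt17 and Krtdap on cKO plate 2.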

How the data were processed

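Full-length cDNA of single sorted cells was sequenced as short paired-end reads, per the labels' protocols. RSEM 1.2.30 with Bowtie2 2.2.9 on mm10 (GRCm38) are named, per the submitters' processing notes, with no annotation release given there or in the labels. The authors deposited 1 table of TPM for 384 cells, in which each cell sums to 1e+06 TPM over 46609 rows, 92 of them ERCC spike-ins. No counts were used, so the depth in reads is unknown and a share of 0 cannot be told from a missed transcript. Smart-seq2 libraries carry no molecular identifiers, and reads hold no strand. Ribosomal Rn18s-rs5 held 57.8% of TPM on average, and 55.3% to 61.5% by plate and gate.

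Cells with at least 1000 genes at 1 TPM were kept, and no 2 cells had identical values. Doublets were not called. Plate means were taken over cells and genotype means over plates. A difference was called at a ratio of at least 1.5: for genotype when plate means did not overlap, for the gate when the ratio was reached in the same direction on each of both plates, and for Cd34 status (10 TPM or more) when the mean over plates reached it and all 5 plates had the same sign. Log2 ratios of means used a pseudocount of 1 TPM. A gene counted as measured at 5 TPM or more. Percentages of cells have exact 95% Clopper-Pearson intervals, which cover counting error only. The labels name no animal, so no p-value was computed, and spread is over plates or cells, which may be technical. The members, the lists of related genes and markers, and the rules were chosen with earlier results of these data known. Genes named are the members, the called genes of the keratin family, junction and regulator lists or, if none, the 2 highest, the 6 highest other keratins, and the 5 genes of highest mean within-plate Spearman's rho with each member, among genes of at least 20 TPM on average and at 10 TPM in at least 25% of cells, without mitochondrial, ribosomal, spike-in and predicted genes. For Krt5, 1 of these genes is not reported here. Windows of 38 bases were compared over GENCODE M21 transcripts. Steps were tested on cells drawn from the pooled cKO plates, with known changes larger than 1.5-fold put in. Calls near 1.5-fold and differences between plates were not part of that test. The steps were run in Python 3.11.15 with numpy 2.4.6, pandas 2.3.3, scipy 1.17.1 and matplotlib 3.10.9. Alternatives were other scalings, filters, averages and thresholds, each plate left out, and subsets of cells.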

Additional observations from a re-analysis of the deposited data

Results flagged for a closer look

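The dKO over cKO log2 ratio of Krt5 was -0.33 on the plates with Xist RNA and 0.14 on the plates with Y-linked RNA. It stands here because the 2 kinds of plate went opposite ways. The difference between them was not tested.

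The Sca-1-positive over Sca-1-negative log2 ratio of Krt15 was 0.57 on dKO plate 2 and -0.014 on cKO plate 3. The plates went opposite ways, although the value on cKO plate 3 was close to 0. The difference was not tested, and genotype and plate cannot be told apart in it.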

How the results depend on the processing

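No called value of a keratin turned its direction under any alternative run, and all kept at least 1.5-fold except that of Krt17 by Cd34 status, which was under it from plate medians (-0.40) and with a Cd34 threshold of 5 TPM (-0.58). Of 512 alternative values, 409 were counted as unmoved. These lay within the spread over plates, within 1.5 times the number of calls or, for shares of cells, within the exact interval of the main value. For the gate, the spread was the SD over plates of the genotype's log2 means in Sca-1-negative cells, not a spread of the gate ratio. Comparisons by Cd34 status and by gate were paired within plates throughout. No paired analysis was possible because each plate held 1 genotype, for dKO against cKO, and replicate numbers of cells pair nothing. Log2 ratios follow the groups in the order used in the text, and for the gate dKO plate 2 comes before cKO plate 3. Where no construction is named, the cause was not tested.

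By genotype, Krt17 was at 1.02 after rescaling, 0.98 with size factors, 1.86 as a difference of mean log2 values, 1.45 from medians, 1.18 with the highest 5% of cells removed, 0.70 in Cd34-positive cells alone, 0.78 on the Y plates and 1.14 without cells of 3 suprabasal, sebaceous or upper follicle markers, a choice made after seeing the data, as was the sum of Krt14, Krt16 and Krt17. Krt15 was at -0.63 on the Y plates. With each plate left out, the ratios ran from -0.26 to 0.02 for Krt5, -0.59 to -0.27 for Krt14, -1.64 to -0.99 for Krt15 and 0.84 to 0.92 for Krt17.

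By Cd34 status, the difference of mean log2 values gave 0.76 for Krt5, -3.63 for Krt14 and 2.56 for Krt15. Medians gave -4.28 for Krt14 and 2.00 for Krt15, and removal of the highest 5% gave 1.73 for Krt15. By gate, the difference of mean log2 values gave 1.43 for Krt5 on cKO plate 3, 3.95 and 2.37 for Krt14 and -6.23 and -3.82 for Krt17. Medians gave 2.97 and 2.15 for Krt14 and -9.15 and -7.32 for Krt17, whose median was 0 in Sca-1-positive cells, so that these values depend on the pseudocount. Removal of the highest 5%, rounded up to whole cells, gave 2.66 for Krt14 on dKO plate 2 and -3.00 and -2.82 for Krt17. Size factors gave 1.06 for Krt5 and 2.63 for Krt14 on dKO plate 2 and -1.76 and -1.13 for Krt17, and rescaling gave -1.40 for Krt17 on cKO plate 3. Cd34-negative cells alone gave 2.01 for Krt14 on dKO plate 2, 1.14 and 0.58 for Krt15 and -2.31 and -1.52 for Krt17. Without the cells of 3 markers, Krt14 was at 2.72 on dKO plate 2 and Krt17 at -3.03 and -1.97.

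Pearson's r of log2 values was -0.026 for Krt14 and Krt15. Krt17 made up 49.2% of the type I sum in dKO after rescaling and 47.6% in all cells, and Krt15 25.8% in cKO on the Y plates. Rescaling multiplies TPM, and at least 100 TPM was then found in 76.6% of dKO and 81.4% of cKO cells for Krt14, 78.6% and 92.3% for Krt15 and 97.4% and 84.2% for Krt17. A threshold of 1000 TPM gave 34.4% of dKO and 33.9% of cKO cells for Krt5, 24.03% and 31.7% for Krt14, 0.649% and 19.7% for Krt15 and 29.2% and 11.5% for Krt17. A threshold of 1 TPM gave 85.1% of dKO cells for Krt14 and 88.96% for Krt15.

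Calls over all genes are given as percentages of the genes tested. The filter and the fold by construction change how many genes can be called, and so does the number of plates. With fewer plates the rule of no overlap is easier to meet. On the Y plates, dKO plate 2 against cKO plate 3, it is always met. Genes higher and lower in dKO made up 1.29% and 2.27% with no filter, 1.71% and 5.18% at 20 TPM, 1.68% and 4.71% at 100 TPM, 0.68% and 1.71% at 2-fold, 4.41% and 12.97% at a fold below 1.5, 5.84% and 5.77% after rescaling, where more genes pass 5 TPM, and 13.5% and 10.5% on the Y plates; 19.03% were lower on the Xist plates. With a plate left out, 2.11% to 7.18% were higher, the most without dKO plate 1, and 7.03% to 14.2% lower, the most without dKO plate 2. Genes higher and lower in Sca-1-positive cells made up 1.03% and 6.02% with no filter, 5.26% and 11.5% at 20 TPM, 8.13% and 5.65% at 100 TPM, 1.92% and 6.73% at 2-fold, 7.68% and 26.4% at a fold below 1.5 and 5.93% and 18.6% after rescaling. Genes higher and lower in Cd34-positive cells made up 9.83% and 10.4% at 20 TPM, 7.12% and 11.9% at 100 TPM, 5.34% and 5.39% at 2-fold and 7.89% and 8.32% after rescaling, and 2.77% were lower with no filter. Plate, animal and genotype cannot be told apart in these data, and the number of cells limits the shares.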

Other observations

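Cells of the Sca-1-negative gate without Cd34 were also set apart by Krt79, a keratin of the upper follicle, at 10 TPM or more. Krt5 averaged 417 and 574 TPM in Krt79-positive cells of the dKO plates, against 841 and 979 TPM in Krt79-negative cells. It averaged 583, 763 and 506 TPM in Krt79-positive cells of the cKO plates, against 798, 1057 and 907 TPM in Krt79-negative cells. Krt5 was thus lower in Krt79-positive cells on all 5 plates, which held 6 to 19 such cells each.

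Krt17 averaged 1291 and 949.5 TPM in Krt79-positive cells of the dKO plates, against 865 and 900.3 TPM in Krt79-negative cells. In cKO it averaged 391, 1171 and 983 TPM in Krt79-positive cells, against 582, 286 and 242 TPM in Krt79-negative cells. The direction was not the same on all plates, since cKO plate 1 was lower in Krt79-positive cells. This split was looked at after the Cd34 results and has no call.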
